A study of Mus musculus with 2 samples.

Results

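The 6 genes described here encode proteins that make, store or break down catecholamines: Th, Ddc, Dbh, Slc18a2, Gch1 and Maoa. They were taken by symbol from the 39098 gene symbols of the deposited files, where all 6 were found. Right trigeminal ganglia (TGs) were from C57BL/6 males aged 5 to 8 weeks, taken on day 7 after 20 μL was injected into the right vibrissal pad. The study describes saline for the control group, which the sample labels call untreated, and complete Freund's adjuvant in saline for the treated (CFA) group. The study used 6 mice per group, and how many mice a library holds is not given in the sources used here. One BD Rhapsody whole transcriptome library was made per group after papain digestion and a density gradient, so no difference between the groups has a replicate check and no p-value is given.

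Values are counts of unique molecular identifiers (UMIs), one per captured transcript, summed per cell class and given as CPM, each class total scaled to 1e+06 UMIs. Ranges in brackets are exact 95% intervals, which cover counting error only. CPM is not divided by transcript length, so levels were compared within a gene and not between genes. After filtering, 6695 control and 3661 CFA cells were kept, with 48233077 and 21658155 UMIs, and 27 cell index numbers occurred in both libraries. Among them were 823 control neurons, with a median of 43621 UMIs, and 428 CFA neurons, with a median of 35110 UMIs. Neurons with P2ry1, a purinergic receptor gene, at 200 CPM or more were set apart as P2ry1-high neurons, 77 in control tissue and 51 after CFA, against 746 and 377 other neurons.

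Tyrosine hydroxylase (Th) converts tyrosine to L-DOPA, and aromatic L-amino acid decarboxylase (Ddc) converts L-DOPA to dopamine. The vesicular transporter Slc18a2 loads dopamine into vesicles, where dopamine β-hydroxylase (Dbh) makes noradrenaline. GTP cyclohydrolase (Gch1) starts the synthesis of tetrahydrobiopterin, the cofactor of Th, and monoamine oxidase A (Maoa) degrades monoamines. Th is also a known marker of C-fiber low-threshold mechanoreceptors (cLTMR), unmyelinated sensory neurons that respond to gentle touch.

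The 6 genes lie on 6 chromosomes. In GENCODE M21 (GRCm38), Th spans 142892752 to 142931128 on the reverse strand of chromosome 7, Ddc 11814101 to 11898144 on the reverse strand of chromosome 11, and Dbh 27165233 to 27183200 on the forward strand of chromosome 2. Slc18a2 spans 59260896 to 59296012 on the forward strand of chromosome 19, Gch1 47153895 to 47189413 on the reverse strand of chromosome 14, and Maoa 16619698 to 16687818 on the forward strand of chromosome X. Ddc and Slc18a2 each overlap an antisense gene and Gch1 overlaps a pair of processed pseudogenes, each with at most 7 UMIs. Promoter windows of RefSeq (GRCm38.p6), from 250 bases before to 50 after a gene's start, were found for all 6 genes. Positions are counted from the RefSeq start, which for Th lies inside the GENCODE span above and not at its end. Those of Th, Slc18a2 and Maoa are printed because Th and Maoa were higher in the P2ry1-high neurons of both libraries, and because Slc18a2, which had no UMI there, shares a motif with Th. Capitals mark the cAMP response element TGACGTCA and the GC box GGGCGG, which on the other strand reads CCGCCC.
Th, chr7:142899946-142900245, reverse strand: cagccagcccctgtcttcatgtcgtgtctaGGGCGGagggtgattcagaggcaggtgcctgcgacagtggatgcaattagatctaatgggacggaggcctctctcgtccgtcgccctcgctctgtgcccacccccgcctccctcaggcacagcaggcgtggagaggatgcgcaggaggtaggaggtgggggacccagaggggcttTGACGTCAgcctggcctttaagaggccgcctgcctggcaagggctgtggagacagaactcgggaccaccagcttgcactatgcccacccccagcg
Slc18a2, chr19:59260628-59260927, forward strand: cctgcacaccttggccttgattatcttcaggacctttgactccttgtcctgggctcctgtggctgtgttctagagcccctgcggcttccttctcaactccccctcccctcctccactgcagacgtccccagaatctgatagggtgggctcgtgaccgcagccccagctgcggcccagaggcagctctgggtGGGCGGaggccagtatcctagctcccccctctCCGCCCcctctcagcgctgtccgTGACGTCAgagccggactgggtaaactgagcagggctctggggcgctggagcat
Maoa, chrX:16619448-16619747, forward strand: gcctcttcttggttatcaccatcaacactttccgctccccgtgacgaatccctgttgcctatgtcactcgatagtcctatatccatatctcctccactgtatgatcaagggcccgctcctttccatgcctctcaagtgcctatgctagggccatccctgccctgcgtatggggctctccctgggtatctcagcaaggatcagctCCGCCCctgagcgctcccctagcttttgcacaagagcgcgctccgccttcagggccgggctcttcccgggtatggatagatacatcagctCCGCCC
TGACGTCA begins at position -45 from the start of Th and at position -4 from the start of Slc18a2, and 1.79% of the 32851 RefSeq windows hold it. The GC box occurs once in the Th window and 2 times each in those of Slc18a2 and Maoa, and 35.7% of all windows hold it. The remaining motifs searched on both strands, TATAAA and the Runx motif TGTGGT, were not in these 3 windows. A match describes the letters only and shows no binding.

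The P2ry1-high neurons matched the cLTMR label. Of the 77 control and 51 CFA neurons, 69 and 47 fell into a cluster named cLTMR-like, whose 10 leading genes include Cd34 and Tafa4, both markers of these cells. The limit of 200 CPM cut few cells from that cluster, since 4 control and 1 CFA cLTMR-like neurons lay below it. Of the remaining P2ry1-high neurons, 7 and 3 were in the NF-like (Nefh-positive, myelinated) cluster and 1 in each library was elsewhere. Near the limit, 17 control and 4 CFA neurons had P2ry1 between 100 and 200 CPM, and 6 and 3 between 200 and 300 CPM. All 7 cLTMR markers, which the limit did not use, had higher levels in P2ry1-high than in other neurons. Slc17a8, a vesicular glutamate transporter gene, was at 99.0 CPM against 1.51 CPM in the control library and at 93.8 CPM against 1.04 CPM in the CFA library. Sympathetic neurons, which also carry Th, could be captured with a ganglion. No kept cell held 3 of 7 sympathetic markers, and no neuron held more than 1 of them.

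Th was at a higher level in P2ry1-high than in other neurons of both libraries. In the control library its level was 175.0 CPM (162.4 to 188.2) in P2ry1-high and 18.6 CPM (17.2 to 20.1) in other neurons, a log2 ratio of 3.23 (3.08 to 3.39). In the CFA library it was 350.7 CPM (327.1 to 375.5) against 9.53 CPM (8.01 to 11.3), a log2 ratio of 5.20 (4.94 to 5.47). The intervals of the P2ry1-high and other neurons did not overlap in either library. Within the P2ry1-high set the cLTMR-like neurons were at 187.0 CPM in the control and 379.7 CPM in the CFA library. The few NF-like ones were at 22.3 CPM (8.17 to 48.5) and 11.4 CPM (1.38 to 41.2), intervals that include the levels of the other neurons. Much of the control Th still lay outside the P2ry1-high set, with 642 UMIs in other neurons beside 719. In the CFA library these counts were 138 and 819. Of the 38 control and 37 CFA neurons with Th at 100 CPM or more, 22 and 17 were other neurons. In a shallow neuron 1 Th UMI can pass that level, as in a CFA NP1-like neuron at 108.4 CPM. Of the 44 control and 31 CFA neurons with at least 5 Th UMIs, 22 and 7 were other neurons.

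Of the 6 genes, Th, Gch1 and Maoa had at least 50 UMIs over the P2ry1-high and other neurons. Of these 3 genes, Th and Maoa were at least 2-fold higher in P2ry1-high neurons in both libraries, as were 6.45% of 13643 genes in control tissue and 6.84% of 11934 genes after CFA. Gch1 was at least 2-fold lower in both, as were 13.8% and 13.3% of genes. Ddc, Dbh and Slc18a2 had too few UMIs in neurons for this count and are given by their counts.

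**Figure D1:**
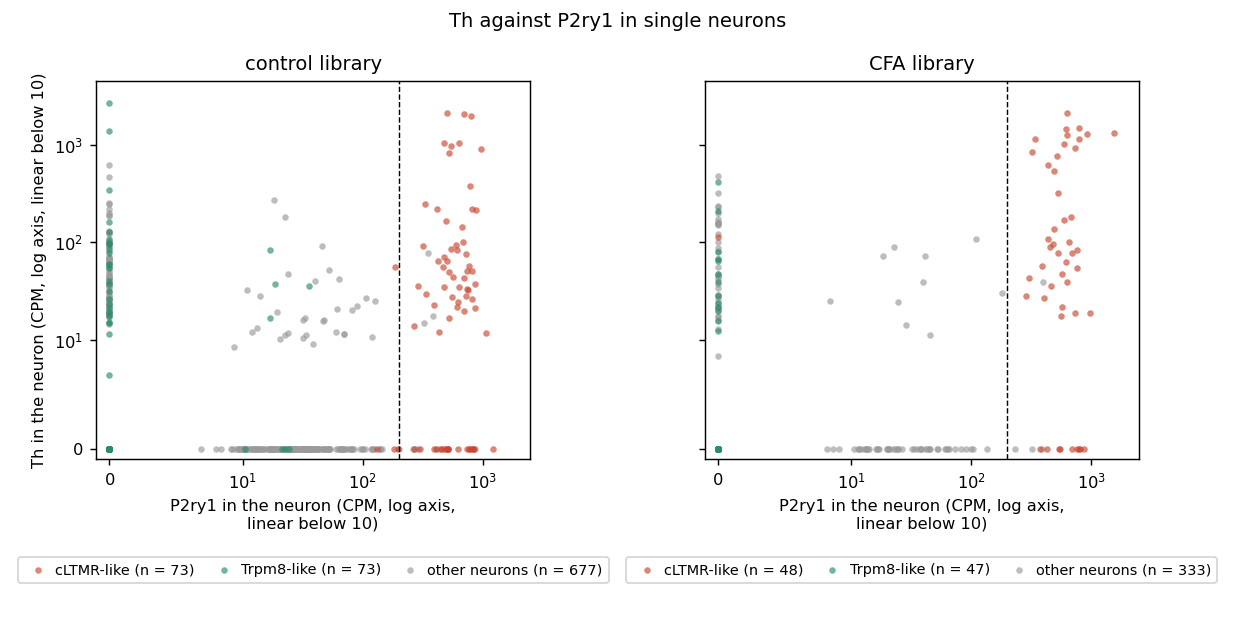
Each point is a neuron of the control (left) or CFA (right) library, with its P2ry1 level on the x axis and its Th level on the y axis, both in CPM on log axes that are linear below 10. The dashed line is the 200 CPM limit. Nearly all cLTMR-like neurons lie to its right and spread from 0 to over 2000 CPM of Th, and the Trpm8-like neurons with the highest Th lie at 0 CPM of P2ry1 in the control library.

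Th was very uneven among the P2ry1-high neurons. At least 1 Th UMI was found in 53 of 77 control neurons, 68.8% (57.3 to 78.9), and in 39 of 51 CFA neurons, 76.5% (62.5 to 87.2). The median neuron had 2.0 Th UMIs in control tissue and 4.0 after CFA, and the highest had 116 and 122. The 5 neurons with the most Th held 58.3% of the control and 50.7% of the CFA counts. Most of the Th RNA of these neurons was therefore in a minority of them in both libraries.

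When neurons were ranked by Th, a group at 500 CPM or more stood above the rest. This limit was chosen after the values were seen. It held 8 of 77 control neurons, 10.4% (4.59 to 19.5), with 73.3% of the Th counts, and 14 of 51 CFA neurons, 27.5% (15.9 to 41.7), with 88.8% of them. Their median depth was like that of the rest, at 50078 against 53401 UMIs in control tissue and 47829 against 47590 UMIs after CFA. All 8 control neurons had at least 25 Th UMIs. Only 12 of the 14 CFA neurons had 20 or more, so the others passed the limit on fewer UMIs. The cLTMR markers of the neurons at 500 CPM or more were at like or higher levels than in the rest. All neurons at 500 CPM or more were cLTMR-like, while the rest included the NF-like ones, so Th level and subtype are mixed here. Tafa4, which encodes a secreted chemokine-like protein, was at 501.4 CPM (432.3 to 578.4) against 418.5 CPM (398.0 to 439.8) in control tissue and 456.5 CPM (405.5 to 512.1) against 421.1 CPM (390.8 to 453.1) after CFA. Piezo2, the mechanotransduction channel gene, was at 717.4 against 714.1 CPM in control tissue and at 1104.4 against 895.1 CPM after CFA. Slc17a8 was at 101.3 against 98.8 CPM in control tissue and at 125.5 against 81.9 CPM after CFA. Kcnd3 was at 480.0 against 395.5 CPM and at 495.7 against 375.7 CPM. For Piezo2, Slc17a8 and Kcnd3 the intervals overlapped in control tissue but not after CFA. For the other cLTMR markers they overlapped in both libraries.

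**Figure D2:**
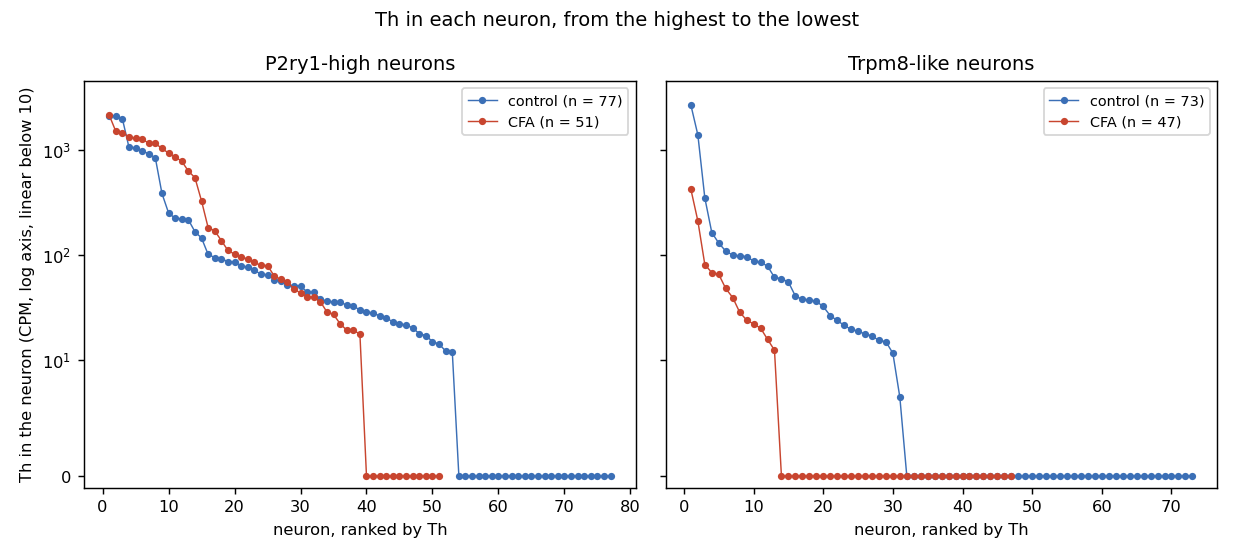
Th in each P2ry1-high neuron (left) and each Trpm8-like neuron (right), ranked from the highest to the lowest, in CPM on a log axis that is linear below 10, with control in blue and CFA in red. Both libraries have P2ry1-high neurons above 2000 CPM and neurons at 0, and 2 control Trpm8-like neurons stand above 1000 CPM.

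Among the named classes, cLTMR-like neurons had the highest Th level, 181.5 CPM (168.4 to 195.3) in control tissue and 377.6 CPM (352.1 to 404.3) after CFA. Trpm8-like neurons, which carry the cold and menthol receptor gene, came next at 137.2 CPM (123.6 to 151.9) and 20.4 CPM (13.2 to 30.0). The control value rested on 2 neurons with 226 and 81 Th UMIs, which held 83.2% of the counts of that class. Without the 2 neurons with the most Th in each library the levels were 24.4 CPM in control tissue and 12.5 CPM after CFA. Both of these control neurons had 0 P2ry1 UMIs, 18 and 22 Trpm8 UMIs and 171 and 81 UMIs of the neurofilament gene Nefh. They had 10 and 4 UMIs over the 7 cLTMR markers, where the 9 control cLTMR-like neurons with at least 20 Th UMIs had 56 to 258. Neither was called a doublet.

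A cluster of 36 neurons that stayed unnamed, 19 control and 17 CFA, also held Th. It was led by Trappc3l, Tac2, F2r, Htr3a and Vmn1r85. Its Th level was 91.0 CPM in control tissue and 111.8 CPM after CFA, and 15 of 19 and 13 of 17 of its neurons had a Th UMI. Unlike in the Trpm8-like class, no single neuron decided this value, since the highest held 20 of 81 control and 11 of 52 CFA UMIs.

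Peptidergic PEP1-like neurons were at 11.6 CPM in control tissue and 6.70 CPM after CFA, and 134 of their 169 control UMIs were in 1 cluster of 86 neurons. The NF-like neurons were at 11.6 CPM in both libraries, and the PEP2-like neurons at 5.51 and 12.8 CPM. The non-peptidergic NP1-like neurons were at 0.963 and 0.505 CPM although they were the deepest or nearly the deepest of the classes, with medians of 66501 and 61994 UMIs, and none had more than 1 Th UMI. Among the named classes, neuronal and non-neuronal together, the intervals of neighbours overlapped below the cLTMR-like class after CFA and below the Trpm8-like class in the control library. The unnamed cluster stood apart from this order, above every named class but cLTMR-like after CFA and above those below Trpm8-like in the control library. Neurons held 98.4% of the control Th counts, and no non-neuronal class exceeded 4.14 CPM in either library.

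**Figure D3:**
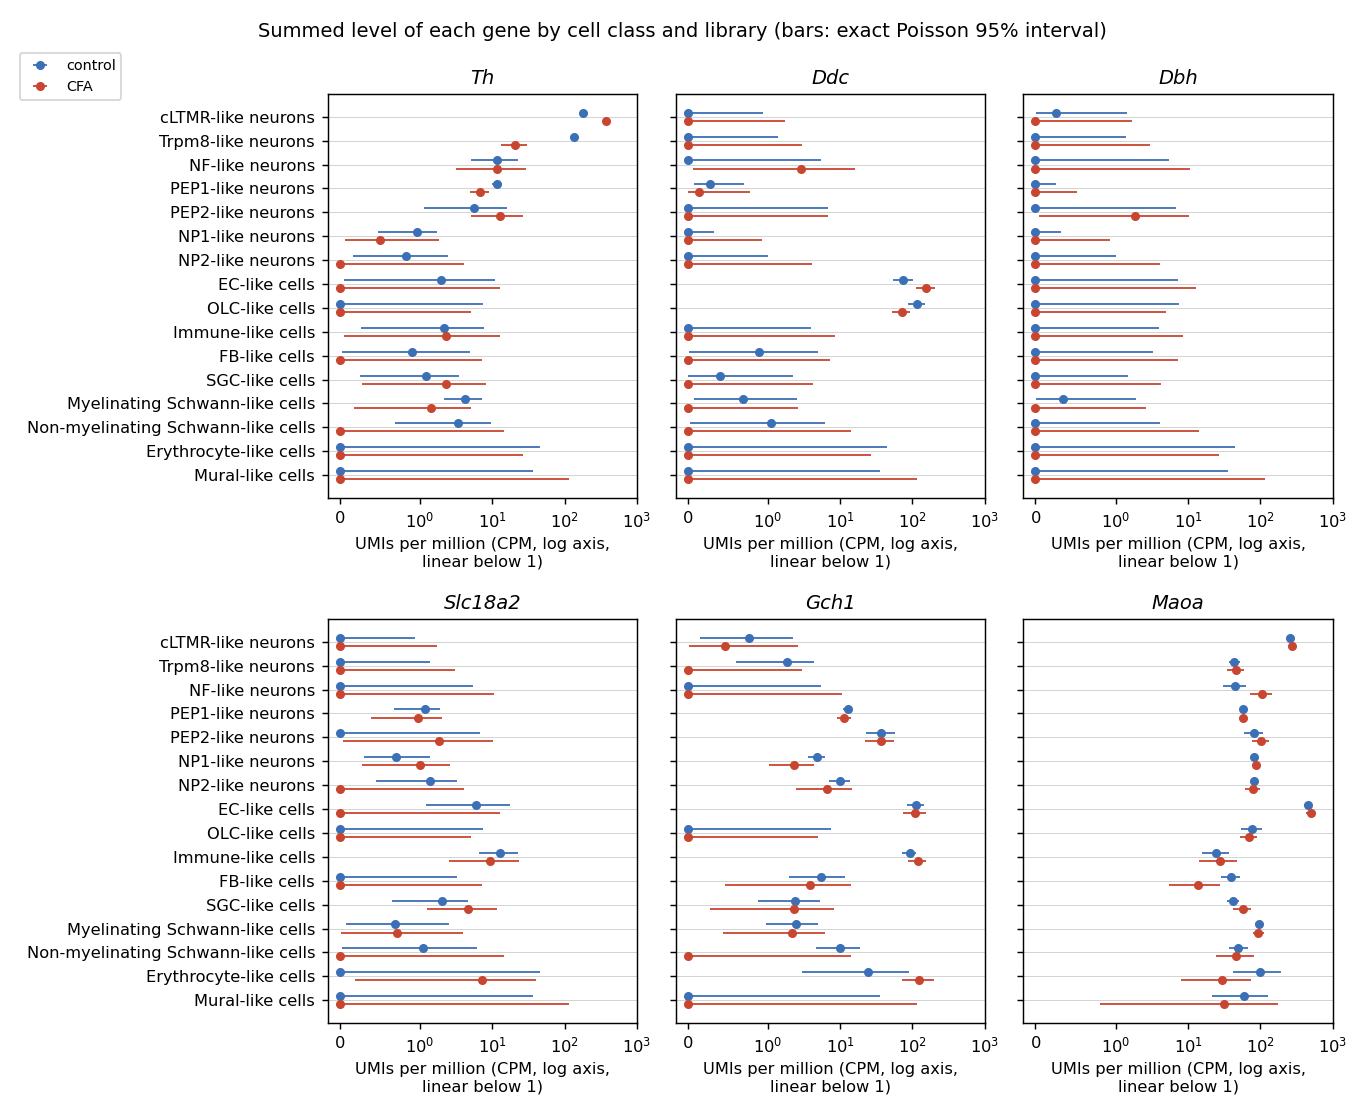
Summed CPM of each of the 6 genes (x axes, log and linear below 1) in 16 cell classes (y axis), control in blue and CFA in red, with exact Poisson 95% intervals. Th is highest in cLTMR-like neurons, Ddc in EC-like and OLC-like cells, Gch1 in EC-like and Immune-like cells, with Erythrocyte-like cells of the CFA library, and Maoa in EC-like cells and then cLTMR-like neurons, while Dbh stays near 0 throughout.

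In the P2ry1-high neurons, Ddc and Slc18a2 were not found with Th. Ddc had 0 UMIs in 77 control and 51 CFA P2ry1-high neurons, among 4109494 and 2335543 UMIs. At the limit of 3 counts set for a count of 0, this allows up to 0.73 CPM and 1.28 CPM. Slc18a2 also had 0 UMIs in both. Dbh had 1 UMI, in a control cLTMR-like neuron with 6 Th UMIs, and Gch1 had 3 UMIs in control tissue and 0 after CFA. A share of 0 of 53 control neurons with Th has an exact upper limit of 6.7% with a UMI of Ddc or Slc18a2. For 0 of 39 CFA neurons that limit is 9.0%. For these genes, absence cannot be told from levels below such limits. Outside the P2ry1-high set the genes were found in some neurons with Th. Of the 130 control and 60 CFA other neurons with a Th UMI, 39 and 16 had Gch1 and 7 and 5 had Slc18a2. Ddc and Dbh were each found in 0 of these control and 1 of these CFA neurons. Most of these neurons, 108 and 53, had 1 to 4 Th UMIs. The Gch1 shares were 30.0% and 26.7%, against 25.8% and 19.6% of other neurons without Th. Those of Slc18a2 were 5.38% and 8.33%, against 4.06% and 2.84%. In P2ry1-high neurons with Th, the exact upper limits for Slc18a2 were 6.7% and 9.0%. They lie above the shares outside, so among neurons with Th no difference was shown for Slc18a2. Taking all P2ry1-high against all other neurons, control Slc18a2 had 0 against 35 UMIs. The upper limit of that log2 ratio was -0.099, just below no difference. After CFA it had 0 against 15 UMIs, and the upper limit of 0.79 leaves room for no difference.

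Maoa was the exception in the P2ry1-high neurons. All 53 control P2ry1-high neurons with Th had a Maoa UMI (lower limit of the share 93.3%), as did 37 of 39 in the CFA library, 94.9% (82.7 to 99.4). The Maoa level was like in P2ry1-high neurons with and without Th, at 244.4 CPM (227.5 to 262.2) and 230.1 CPM (200.4 to 263.0) for control. In the CFA library it was 257.3 CPM (235.2 to 280.9) and 285.1 CPM (235.2 to 342.5), so the intervals overlapped in both. Neurons with Th outside the P2ry1-high set had less Maoa than the P2ry1-high neurons. In the control library they were at 60.1 CPM (54.4 to 66.2), below the 71.1 CPM (68.0 to 74.35) of those without Th. These 2 intervals did not overlap. In the CFA library the values were 71.7 CPM (61.65 to 83.0) and 68.5 CPM (63.9 to 73.4), whose intervals overlapped.

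Depth affects how many cells show a UMI, so neurons were also thinned to 5000 UMIs each, which left out 1 P2ry1-high neuron per library and 31 and 21 other neurons. After thinning Th was found in 26.3% (16.9 to 37.7) of 76 control P2ry1-high neurons against 4.90% (3.43 to 6.74) of 715 others. In the CFA library it was found in 34.0% (21.2 to 48.8) of 50 against 7.02% (4.60 to 10.2) of 356. In NP1-like neurons, whose Th level was already low before thinning, the shares were 0.585% (0.01 to 3.22) of 171 control and 1.56% (0.04 to 8.40) of 64 CFA neurons. The CFA interval includes the share of the other neurons. Maoa was found in 67.1% (55.4 to 77.5) against 27.8% (24.6 to 31.3) in the control library and in 64.0% (49.2 to 77.1) of the CFA P2ry1-high neurons. No thinned P2ry1-high neuron of either library had Ddc, Dbh or Slc18a2, and 1 in the control had Gch1.

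**Figure D4:**
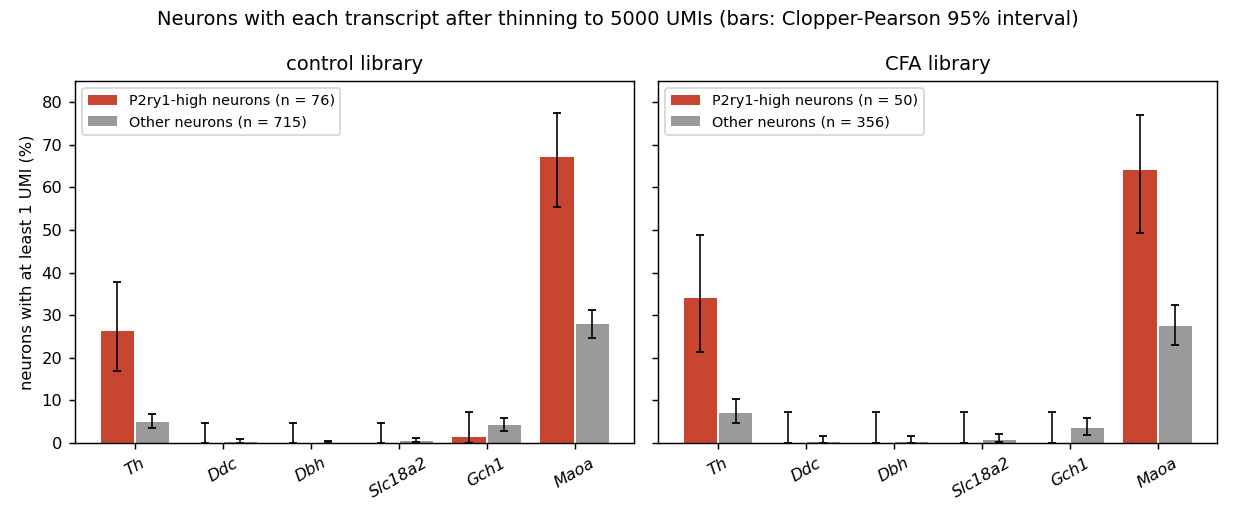
Bars give the percent of P2ry1-high (red) and other (grey) neurons with at least 1 UMI of each gene after thinning to 5000 UMIs, with Clopper-Pearson 95% intervals, in the control (left) and CFA (right) library. Th and Maoa are found in a larger share of P2ry1-high neurons in both libraries, and the bars of Ddc, Dbh and Slc18a2 are at or near 0.

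Ddc was found almost wholly outside neurons. It had 4 and 3 UMIs over all control and CFA neurons. In endothelial-like cells (EC) it was at 75.1 CPM (53.2 to 103.1) in control tissue and 154.6 CPM (112.3 to 207.6) after CFA, and in oligodendrocyte-like cells (OLC) at 114.3 CPM (86.4 to 148.5) and 70.7 CPM (52.8 to 92.7). The EC and OLC intervals overlapped in the control library and not in the CFA library. The log2 ratio of CFA over control was 1.04 (0.38 to 1.71) in EC and -0.69 (-1.27 to -0.12) in OLC. With every cell weighted equally the OLC levels were 75.3 CPM in control and 67.9 CPM in CFA cells, so the OLC difference depended on the weighting. No EC-like or OLC-like cell with Ddc had a Th UMI. Th itself had 1 UMI in control and 0 in CFA EC-like cells, and 0 in OLC-like cells of both libraries. The 2 genes could therefore hardly be found together there.

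Dbh was close to absent, with 3 UMIs in all kept cells. Beside the cLTMR-like neuron named above, 1 was in a control myelinating Schwann-like cell and 1 in a CFA PEP2-like neuron.

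Slc18a2 was sparse, with 35 and 15 UMIs in the other neurons, 1.01 and 1.04 CPM. Among neuron clusters it was highest in the unnamed cluster of 36 neurons, at 5.62 CPM (1.82 to 13.1) and 6.45 CPM (1.33 to 18.8). Those levels rested on 5 UMIs in 4 of 19 control and 3 UMIs in 3 of 17 CFA neurons. The highest named class for Slc18a2 was Immune-like cells at 12.9 CPM (6.65 to 22.5) in control tissue and 9.23 CPM (2.51 to 23.6) after CFA. All of those counts lay in 1 cluster of 126 control and 51 CFA cells, at 34.3 and 39.4 CPM. That cluster was led by Prg2, Ccl5, Ly6c2, Plac8 and Xcl1, in a ranking that left out the mast cell markers other than Kit. Mast cells store monoamines with this transporter. The 6 control and 3 CFA cells that held at least 3 of 9 mast cell markers had 6 and 3 Slc18a2 UMIs. Of these cells 2 control and 1 CFA were neurons, and whether the rest lay in that cluster is not given here.

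Gch1 was lower in P2ry1-high than in other neurons. In the control library it was at 0.73 CPM (0.15 to 2.13) against 9.18 CPM (8.20 to 10.3), a log2 ratio of -3.65 (-5.94 to -2.09). In the CFA library 0 UMIs stood against 120 UMIs, 8.29 CPM, and the upper limit of the log2 ratio was -2.37. Among neurons it was highest in PEP2-like neurons, 36.7 CPM (22.4 to 56.7) in control tissue and 36.5 CPM (22.3 to 56.4) after CFA, and it was at 12.7 and 11.3 CPM in PEP1-like neurons. Outside neurons it was highest in the control library in EC-like cells, 110.7 CPM, and Immune-like cells, 91.2 CPM, whose intervals overlapped, and those classes were at 108.9 and 117.6 CPM in the CFA library. Erythrocyte-like cells had 2 UMIs in control tissue and 17 after CFA, 24.5 and 123.8 CPM.

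Maoa was found in every class but at unequal levels. P2ry1-high neurons were at 241.1 CPM (226.4 to 256.6) in control tissue and 262.0 CPM (241.7 to 283.6) after CFA, against 69.0 CPM (66.2 to 71.8) and 69.1 CPM (64.9 to 73.5) in other neurons. The log2 ratios were 1.81 (1.70 to 1.91) and 1.92 (1.78 to 2.07). EC-like cells were higher still, at 454.7 CPM (397.8 to 517.4) and 502.5 CPM (423.5 to 591.9). Each of the other neuron subtypes was between 43.9 and 104.1 CPM. Within the P2ry1-high set the cLTMR-like neurons were at 256.0 CPM in the control and 276.5 CPM in the CFA library. The few NF-like ones were at 55.7 CPM (31.15 to 91.8) and 97.0 CPM (56.5 to 155.3).

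Between the libraries, Th was higher in the P2ry1-high neurons after CFA, the log2 ratio being 1.00 (0.86 to 1.15). The interval does not include the spread between neurons or animals. The ratio was 1.36 (1.14 to 1.58) without the 5 neurons with the most Th in each library. Those 5 were taken from 8 control but 14 CFA neurons at 500 CPM or more. Leaving out equal numbers therefore weighs more on the control level, and does not show a difference apart from the neurons with high Th. P2ry1-high neurons with Th at 100 CPM or more were 16 of 77 in the control, 20.8% (12.4 to 31.5), and 20 of 51 in the CFA library, 39.2% (25.8 to 53.9), whose intervals overlapped. Of the 9501 genes with at least 50 UMIs in P2ry1-high neurons, 0.474% were at least 2-fold higher and 1.01% at least 2-fold lower in the CFA library, and the median log2 ratio was -0.02. Maoa, the other gene of the 6 with enough UMIs, had a log2 ratio of 0.12 (-0.03 to 0.27). Interferon response genes were unequal between the libraries in these neurons too, with 9 genes summing to 112.4 CPM in control tissue and 56.1 CPM after CFA, and their part in the Th difference was not tested.

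In the other neurons Th went the opposite way, with a log2 ratio of CFA over control of -0.96 (-1.24 to -0.70). Without the 2 neurons with the most Th in each library it was -0.22 (-0.54 to 0.08), so 2 control Trpm8-like neurons carried most of that value. In PEP1-like neurons it was -0.79 (-1.28 to -0.32). Most of their Th lay in 1 cluster, with 134 of 169 control and 35 of 48 CFA UMIs, which made up 86 of 381 control but 30 of 215 CFA neurons of the class. Within that cluster the ratio was -0.25 (-0.83 to 0.30), an interval that includes 0, and in the unnamed cluster it was 0.30 (-0.24 to 0.82).

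Among the further catecholamine genes reported, the plasma membrane transporters Slc6a2 and Slc6a3 and the enzyme Pnmt had few UMIs. Each had at most 1 UMI in the P2ry1-high neurons of a library. Slc18a1, a second vesicular transporter gene, had 9 control and 2 CFA UMIs there, where Slc18a2 had 0. The log2 ratios of Slc18a1 over other neurons were 0.955 (-0.276 to 2.025) and 0.173 (-3.042 to 2.369), intervals that include 0. Aldh2, an aldehyde dehydrogenase gene, was lower in P2ry1-high neurons, at -0.81 (-0.99 to -0.62) and -0.93 (-1.19 to -0.68) on the log2 scale. Cyb561, which supplies reducing equivalents in vesicles, was lower too, at -0.42 and -0.53.

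Of the further tetrahydrobiopterin genes reported, Pts and Pcbd1 were higher in P2ry1-high neurons and Spr, Qdpr and Pcbd2 lower in both libraries, while Gchfr had at most 3 UMIs there. Pts, the second enzyme of the synthesis, was at 87.4 CPM against 62.7 CPM in the control library and 73.2 CPM against 61.0 CPM in the CFA library. Qdpr, which regenerates the cofactor, was at 137.7 CPM against 273.9 CPM and at 113.5 CPM against 239.5 CPM. The genes of the cofactor's pathway thus did not share 1 direction.

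Of the pathway and receptor genes listed beside the 6, Adrb1 had the largest ratio among those with at least 50 UMIs in neurons. Adrb1, which encodes the β1-adrenergic receptor, was at 31.4 CPM in P2ry1-high and 1.36 CPM in other neurons of the control library, a log2 ratio of 4.53 (4.04 to 5.04). In the CFA library it was at 50.1 CPM against 1.52 CPM, a log2 ratio of 5.04 (4.38 to 5.77). It was found in 55 of 77 control and 32 of 51 CFA P2ry1-high neurons, against 34 of 746 and 19 of 377 others. Of the P2ry1-high neurons with Th, 42 of 53 and 26 of 39 had it as well. The α2-adrenergic receptor genes went the other way, with Adra2c at 5.35 CPM against 18.6 CPM and 3.43 CPM against 20.3 CPM, and Adra2a at 0.487 CPM against 7.12 CPM and 0.428 CPM against 4.70 CPM. The other 11 receptor genes had at most 10 UMIs in the P2ry1-high neurons of a library.

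Apart from Nr4a2, the genes of the remaining lists had few UMIs. Of 3 serotonin genes, Tph2, a tryptophan hydroxylase gene, had 7 and 8 UMIs in P2ry1-high neurons, and Tph1 and Slc6a4 had at most 1. Of 5 transcription factors of dopaminergic neurons, Nr4a2 was at 7.06 CPM against 9.04 CPM in control tissue and 8.14 CPM against 7.18 CPM after CFA, with intervals that include no difference. Pitx3, Foxa2, En1 and Lmx1b had at most 1 UMI each in P2ry1-high neurons of a library.

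**Figure D5:**
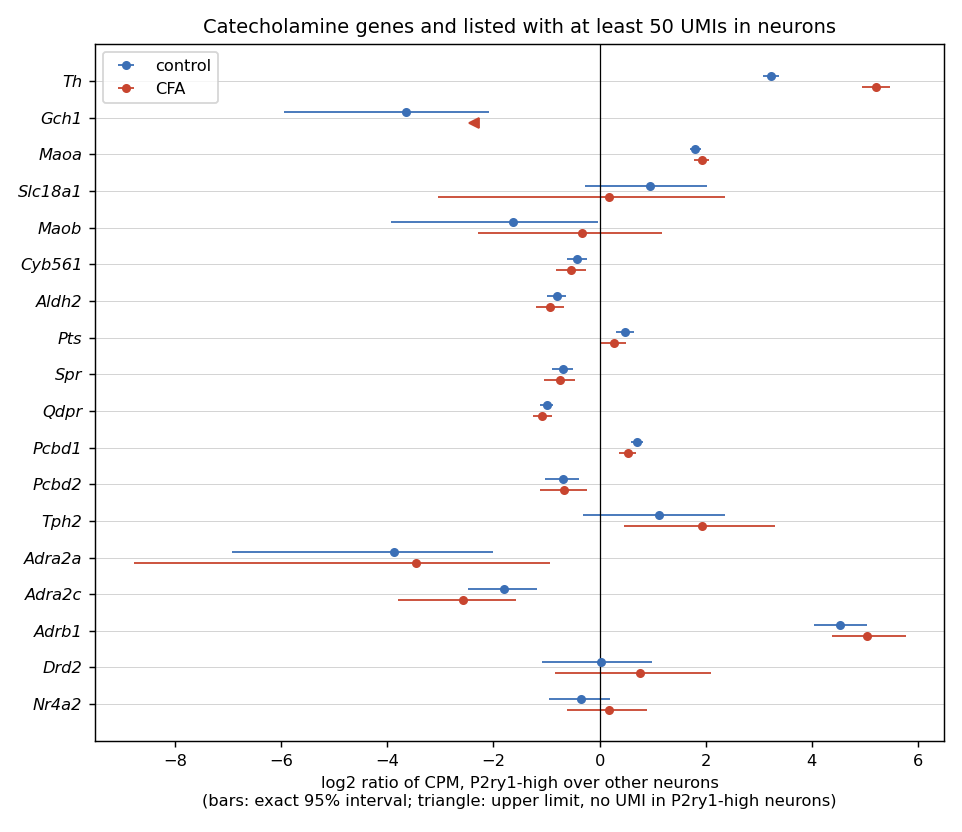
Log2 ratio of CPM in P2ry1-high over other neurons (x axis) for the 18 catecholamine and listed genes with at least 50 UMIs in neurons (y axis), control in blue and CFA in red, with exact 95% intervals. Th, Maoa and Adrb1 lie to the right, Gch1, Adra2a and Adra2c to the left, and the triangle for Gch1 is the CFA upper limit. Tph2 also lies to the right, with wide intervals of which the control one includes 0.

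The genes whose pattern over 13 classes in both libraries (26 points) was most like that of Th were Spink2, Krt25 and Cpne5, with Pearson's r of log2(CPM + 1) of 0.93 each. For Ddc they were Apln (0.92), Klhl4 (0.89) and Prom1 (0.84), and for Gch1 they were Golm1 (0.91), Lmo2 (0.90) and Slc40a1 (0.85). Those for Slc18a2 were Sla (0.85), Fermt3 (0.79) and Dock2 (0.79), and for Maoa Arl2bp (0.78), Slc35f2 (0.76) and Ism1 (0.76). The points share 2 libraries and unequal depths, and Dbh had too few UMIs.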

How the data were processed

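The deposited values were UMI counts for every gene in every cell, made by the authors with the BD Rhapsody pipeline and not normalized. The submitters' processing notes name fastp and GRCm38, and the aligner and annotation are not given in the sources used here. Cells with fewer than 150 genes or over 25% mitochondrial counts were left out. Both libraries were clustered together in R 4.3.3 with Seurat 5.3.0 (2000 variable genes, 20 principal components, 20 neighbours, resolution 0.8 for all cells and 1 for neurons), without 73 genes that include the 6 described. Clusters took the name of the type with the highest scaled marker score, with at least 3 markers. A minimum score of 0.5 for neuron clusters was set after seeing the data, and otherwise the unnamed cluster of 36 neurons would be NF-like. A further 21 shallow neurons stayed unnamed. The sympathetic list was used without Npy and Chrna3, which other neurons express.

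Counts were summed per class and library, without a test, in Python 3.11.15 (numpy 2.4.6, scipy 1.17.1, pandas 2.3.3). Levels have exact Poisson, shares Clopper-Pearson and ratios conditional exact binomial intervals at 95%. A count of 0 was given a limit of 3 counts. UMI totals per library and neuron are in the report, and depth sets these intervals. Scrublet in scanpy 1.11.5 called 107 control doublets (1.60%) and 4 with CFA (0.109%), so the latter call cannot be relied on, and doublets were kept. Ratio intervals were tested on simulated Poisson counts, the model they assume, so that test does not cover the spread between neurons.

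The 6 genes, the lists and the P2ry1 limit were chosen with earlier results of these data known. Named genes were the 6, the listed genes and, for each of the 6, the 3 genes with the highest Pearson's r among genes with at least 200 UMIs, over classes with at least 20 cells per library. Some listed genes are not reported here. Alternatives were a stricter filter, other resolutions, no gene left out of clustering, doublets left out, totals without mitochondrial genes, equal weight per cell, neurons by markers or with at least 5000 UMIs, other P2ry1 limits, thinning, detection at 2 UMIs, and leaving out the neurons with most Th.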

Additional observations from a re-analysis of the deposited data

Results flagged for a closer look

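Cells left out by the filters still held UMIs of 2 of the genes, above the limit that a count of 0 allows. The 603 control cells left out had 6 Th UMIs, 1 each in 6 cells, and 10 Maoa UMIs among 683019 UMIs, and their median mitochondrial share was 45.1%. The 419 CFA cells left out had 8 Maoa UMIs among 438113 UMIs, with a median mitochondrial share of 3.60%. In the control library these Th UMIs were 0.432% of all its Th counts.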

How the results depend on the processing

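Of 228 values recomputed for 21 results under 17 settings, 195 stayed within the 95% counting interval and 33 moved outside it. Only the log2 ratios of Th could change direction, as levels and shares are never negative, and none of them did. With 1 library per group no library could be left out. No paired analysis was possible because each group has 1 library. The log2 ratio of Th in P2ry1-high over other neurons was 3.49 (control) and 4.70 (CFA) with every cell weighted equally, 3.41 and 4.49 at a limit of 400 CPM of P2ry1, and 2.99 in the control at 100 CPM. Without the neuron with the most Th in each class it was 3.62 in the control library. The log2 ratio of CFA over control was 1.16 at 100 CPM. Th in cLTMR-like neurons without that 1 neuron was 154.4 and 333.9 CPM, and in control Trpm8-like neurons 54.9 CPM, or 80.3 CPM with equal weights. Leaving out 2 or 5 neurons was added after seeing the data. Without 2, cLTMR-like Th was 127.3 and 298.5 CPM, Trpm8-like Th 24.4 and 12.5 CPM, the control ratio of P2ry1-high over other neurons 3.66 and the ratio of CFA over control 1.17. Without 5, they were 80.4 and 217.0 CPM, 19.4 and 7.43 CPM, 4.84 for the CFA ratio of P2ry1-high over other neurons, and 1.36. Shares fell by construction when fewer UMIs count. Th was found in 26.3% and 34.0% of thinned P2ry1-high neurons and, at 2 UMIs or more, in 55.8% of the control ones. Among those with Th after thinning, Maoa was in 75.0% and 52.9%. The control shares with Dbh and Gch1 were 0% after thinning and at 2 UMIs, and that with Dbh was 0% at 400 CPM of P2ry1. Of 108 further values, for Ddc, Gch1, Maoa and Slc18a2 outside neurons, 107 stayed within the interval. Other totals and equal weights do not enter a share of cells, so those 2 settings were not run for shares.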
